A study of Mus musculus with 19 samples.

Results

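Cycling early double-positive blasts are thymocytes that were dividing, carried RNA of the CD8 coreceptor and still carried RNA of genes of the early T cell program. They were chosen by their own RNA. A member had at least 1 unique molecular identifier (UMI, a tag that counts an RNA molecule once) of Mki67, a marker of cycling cells, and at least 1 of Top2a, the topoisomerase that untangles replicated DNA. It also had at least 1 UMI of Arpp21, a phosphoprotein gene with high RNA in immature thymocytes, or of Ptcra, which encodes the pre-T alpha chain, and at least 1 of Cd8a or Cd8b1, the 2 chains of CD8. Cells with a UMI of Ccr7 or S1pr1, the receptors that guide maturing thymocytes to the medulla and out of the thymus, were left out. The rule found 6119 members among 79569 cells that had at most 15% of their UMIs from mitochondrial genes and at least 200 genes detected. The files held 85389 barcodes. The study states 72042 cells, and its RNA and protein filters together left 72054 of these barcodes.

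In the thymus, a double-negative (DN) progenitor that makes a productive TCRβ chain pairs it with the pre-T alpha chain and CD3 to form the pre-TCR. Signals from the pre-TCR and from Notch start a burst of division, during which CD8 and then CD4 appear on the surface. The large double-positive (DP) blasts then stop dividing, become small DP cells and rearrange the TCRα locus before positive selection.

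Thymocytes of 17 female mice aged 4 to 8 weeks were profiled by CITE-seq, which counts RNA and surface-bound barcoded antibodies in the same cell, with a panel of 111 antibodies, in 19 lanes and 3 experiments. CD4-fated mice were AND, a TCR transgenic line on a Rag1-/- background whose receptor recognizes MHC class II, OT-II, a class II-restricted TCR transgenic line, and MHCI-/-, which lacks B2m. CD8-fated mice were F5, a class I-restricted TCR transgenic line on a Rag1-/- background, OT-I, a class I-restricted TCR transgenic line, and MHCII-/-, which lacks H2-Ab1. Each of these 6 genotypes had 2 mice, and there were 5 wild-type (WT) C57BL/6 mice. The study's methods list the lines under stocks of differing strain background. The MHCI-/- and MHCII-/- mice and WT r1, r2 and r3 were sorted for CD5+TCRB+ cells, a gate that enriches later stages, while AND, F5, OT-I, OT-II and WT r4 and r5 were not sorted. WT r1, AND r1 and F5 r1 formed the first experiment, and AND r2, F5 r2 and the other sorted mice the second. The OT-I, OT-II and unsorted WT mice formed the third experiment. In the transgenic mice a rearranged TCR is supplied by the transgene, and Rag1-/- mice make no other receptor, which limits them as models of division driven by the pre-TCR.

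The genotype labels were checked in the summed RNA of the members. B2m read 9.87 and 7.25 counts per 1000000 counts (CPM) in the MHCI-/- mice and 192 to 741 CPM in the other mice. Rag1 was lowest in the AND and F5 mice, at 19.4 to 62.4 CPM, and the next mouse, OT-I r1, had 83.3 CPM. H2-Ab1 lay between 6.01 and 68.8 CPM in all mice, with 9.59 and 10.2 CPM in the MHCII-/- mice, too low in these cells to check that label. The antibody against TCR Vβ5, the β chain of the OT receptors, gave 52.4 and 30.6 UMIs per 10000 antibody UMIs in OT-I, 13.4 and 8.72 in OT-II and 4.88 and 5.56 in unsorted WT. Over all CD4-fated mice it ran from 2.69 to 13.4 with a mean of 8.32. It therefore did not set OT-II r2 apart from the other CD4-fated mice.

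The libraries WT r5, OT-I r2 and OT-II r2 stood apart. Their members had median depths of 4216 to 9047 RNA UMIs, against 10903 to 21438 in the other 14 mice. Of 8691 genes with a mean of at least 5 CPM in the members, 1234 were above and 1462 below all other mice in all 3 of these libraries, or 31.02% together. Eif3j1, a translation initiation factor subunit, read 369 to 514 CPM in them and at most 180 CPM elsewhere. Counts of antibodies and genes in the comparisons are therefore given with and without these libraries where the call moved. In antibodies AND r2 was the shallowest, with 4484116 antibody UMIs, the fewest of any lane. The study's protein filters kept 1901 of its 4320 cells. Lanes of the first experiment shared 33 to 35 barcodes a pair, 1.25% to 1.31% of the smaller lane, against at most 0.416% for any other pair of the 171, and 9 member barcodes in all were found in 2 lanes.

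Members had a median of 9 UMIs of Mki67 and 22 of Top2a. Of all members, 98.8% had a UMI of Arpp21, 48.1% of Ptcra, 93.0% of Cd8a and 97.2% of Cd8b1. Arpp21 without Ptcra was found in 3176 members, Ptcra without Arpp21 in 72 and both in 2871. The chosen genes spread widely over mice: Ptcra read 48.7, 107 and 386 CPM at the lowest, the median and the highest mouse, and the share of members with a UMI of it ran from 25.4% in WT r5 to 81.7% in OT-II r1. Just inside the rule, 669 members (10.9%) had a single Mki67 UMI and 491 (8.02%) a single Top2a UMI. Just outside it lay 1169 cells with Mki67 but no Top2a and 2811 with Top2a but no Mki67, at median depths of 3286 and 1990 RNA UMIs, against 11112 in members. A further 783 cells met the rule except for a UMI of Ccr7 or S1pr1, with a median of 10 Mki67 and 22 Top2a UMIs.

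A doublet caller based on simulated pairs marked 518 members (8.47%), which were kept and also left out as an alternative. Leaving out all called doublets lowered the mean share of members over the 17 mice from 6.34% to 6.12%. In most mice, doublet calls were thus more frequent among members than among all filtered cells. B cell genes summed to 6.52 to 26.6 CPM over mice and epithelial and stromal genes to 33.7 to 63.9 CPM, with Col3a1 at 0 in every mouse and the B cell markers Cd79a and Ms4a1 at a median of 0. Treg genes summed to 73.6, 110 and 267 CPM at the lowest, median and highest mouse, NKT and γδ T cell genes to 52.5, 94.97 and 192 CPM and mature thymocyte genes to 74.1, 115 and 318 CPM, although the defining factors Foxp3 and Zbtb16 were at a median of 0. Erythroid genes had a median of 0 CPM and reached 270 CPM in OT-II r1. DN progenitor genes summed to 8.05, 45.6 and 423 CPM at the lowest, median and highest mouse (OT-II r2), and myeloid genes, mostly Cst3, to 106, 169 and 346 CPM. The part of these markers in the comparisons was not tested.

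Blasts made up 1.69% to 17.01% of the filtered cells of a mouse. In unsorted WT thymi they were 10.5% in r4 and 17.01% in r5, with 95% Wilson intervals of 9.97% to 11.04% and 16.3% to 17.8% that cover counting error only. In WT mice sorted for CD5+TCRB+ cells they were 5.56%, 2.51% and 6.88%, all below both unsorted mice. The sort and the experiment cannot be told apart here.

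Among CD4-fated mice the shares were 3.63% and 2.66% in AND, 4.18% and 1.69% in MHCI-/- and 7.71% and 6.77% in OT-II. Among CD8-fated mice they were 3.099% and 16.9% in F5, 7.16% and 4.30% in MHCII-/- and 3.52% and 3.71% in OT-I. The 2 F5 mice, which came from different experiments, were thus further apart than any other pair of a genotype. The ranges of the CD4-fated and CD8-fated mice overlapped. The CD4-fated mean was 4.44 ± 2.35% (SD, n = 6) and the CD8-fated mean 6.45 ± 5.33% (n = 6), a difference of -2.01 percentage points (two-sided exact permutation test over 924 splits, p = 0.515, smallest possible 0.00216). Without F5 r2 the difference was 0.0824 points (exact permutation p = 0.974). Within families it was -6.86 points for AND against F5, -2.80 for MHCI-/- against MHCII-/- and 3.63 for OT-II against OT-I.

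A cell with more UMIs is more likely to meet a rule on single UMIs, so each cell was also thinned at random to 1500 RNA UMIs, which left 72396 cells and 2303 members. The share was then 15.4% in WT r5 and 5.05% in WT r4, and 0.381% to 3.65% in all other mice. F5 r2 moved from 16.9% to 2.99%, within the range of the other unsorted transgenic and sorted mice, while WT r5 stayed high, though only 5083 of its 9646 cells were deep enough to be kept. The CD4-fated minus CD8-fated difference in the thinned data was -0.457 points (exact permutation p = 0.504).

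**Figure D1:**
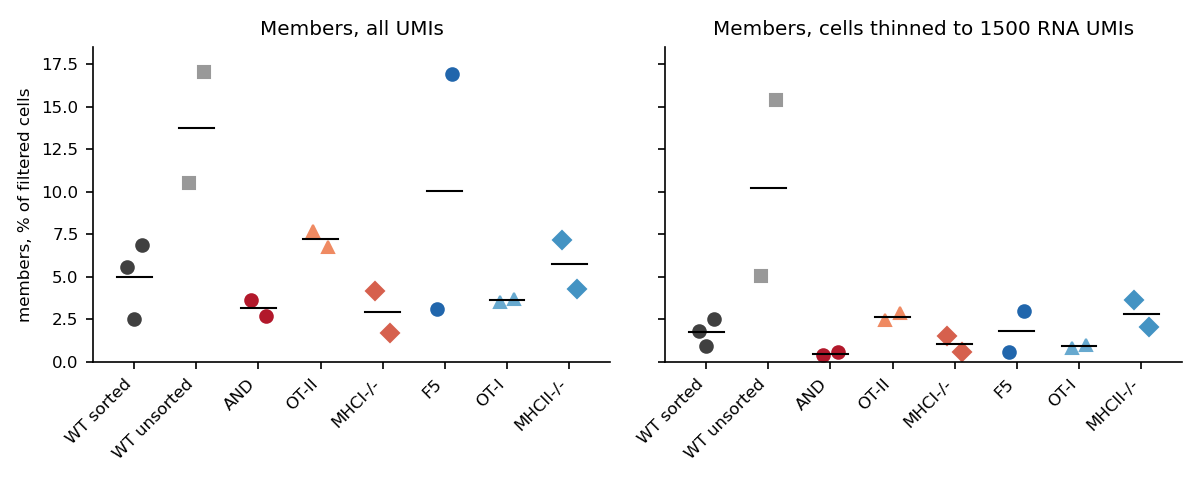
Share of filtered cells that met the rule for cycling early DP blasts (y axis, percent) by genotype (x axis), with all UMIs (left) and after thinning each cell to 1500 RNA UMIs (right); each point is a mouse and each bar the mean of its genotype. WT r5 (17.01% and 15.4%) is high in both panels, whereas F5 r2 is at 16.9% on the left and at 2.99% on the right.

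The RNA of the blasts was set against that of 18696 resting DP cells of the same mice, which met the same rule but had no UMI of Mki67 or Top2a. Blasts held a median of 13657 RNA UMIs a cell over mice (4216 to 21438) and resting DP cells 2946.5 (1337.5 to 5461.5), a ratio of 4.63 within mice (3.15 to 6.18), whereas antibody UMIs differed by a ratio of only 1.25 (1.09 to 1.54). RNA was summed over the cells of a mouse and scaled to CPM. In these sums fewer cells with an RNA and a smaller share of it per cell cannot be told apart. CPM is a share of the total RNA, which was larger in blasts, so a lower CPM need not mean fewer molecules per cell. Because the rule picked cells by RNA, these values are a description with no test. Of 9100 genes with a mean of at least 5 CPM, 16.3% were higher in blasts in all 17 mice and 26.9% lower in all 17, and the median log2 ratio of all genes was -0.27.

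All 28 genes of DNA synthesis on the S-phase list were higher in blasts in all 17 mice, with a median log2 ratio of 3.11. Rrm2, a subunit of the ribonucleotide reductase that makes deoxynucleotides, read 319, 654 and 840 CPM at the lowest, median and highest mouse in blasts and 3.56, 8.93 and 46.1 CPM in resting DP cells. Clspn, which signals stalled replication forks, read 120, 146 and 229 against 5.67, 8.93 and 23.4 CPM, and Mcm6, of the replicative helicase, 226, 302 and 513 against 26.0, 49.4 and 140 CPM. For all 3 genes the lowest blast value lay above the highest resting value.

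The 33 genes of the G2/M list had the largest shift of any list, a median log2 ratio of 5.35, and 32 of them were higher in all 17 mice (Smc4 in 16). Cdk1, the kinase that drives entry into mitosis, read 242, 507 and 729 CPM in blasts and 1.48, 5.94 and 22.7 CPM in resting cells, a median log2 ratio of 6.22. Ube2c, a ubiquitin-conjugating enzyme of the anaphase-promoting complex, read 326, 1212 and 1920 against 4.00, 19.8 and 67.1 CPM, and Ccnb2, a mitotic cyclin, 237, 432 and 624 against 3.97, 17.1 and 57.5 CPM. Nusap1, a spindle protein, had the largest median log2 ratio outside the rule, 6.88. Resting cells were required to lack Mki67 and Top2a, so low levels of these genes in them follow in part from the rule.

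Some genes of the S and G2/M lists carry known promoter elements, and promoters of 5 such genes are shown to place these elements beside the values. Sequences are from RefSeq on build GRCm38.p6, from 250 bases before to 50 after the start of each gene, written 5′ to 3′ on the strand of the gene. Capitals in the first set mark TTTGAA, the core of the cell cycle genes homology region (CHR), and CCAAT, on either strand, so that CCAAT on the other strand reads ATTGG. Both elements stood in the promoters of Cdk1 (chr10:69352863-69353162, minus strand), Ccnb2 (chr9:70421505-70421804, minus strand) and Ube2c (chr2:164769679-164769978, plus strand), where neighbouring matches can run together.
Cdk1: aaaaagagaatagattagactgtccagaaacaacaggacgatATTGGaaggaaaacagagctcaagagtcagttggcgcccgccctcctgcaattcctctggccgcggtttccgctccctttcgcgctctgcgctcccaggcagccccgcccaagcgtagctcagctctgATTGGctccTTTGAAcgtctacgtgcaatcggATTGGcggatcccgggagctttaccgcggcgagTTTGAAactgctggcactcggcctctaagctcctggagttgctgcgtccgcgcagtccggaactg
Ccnb2: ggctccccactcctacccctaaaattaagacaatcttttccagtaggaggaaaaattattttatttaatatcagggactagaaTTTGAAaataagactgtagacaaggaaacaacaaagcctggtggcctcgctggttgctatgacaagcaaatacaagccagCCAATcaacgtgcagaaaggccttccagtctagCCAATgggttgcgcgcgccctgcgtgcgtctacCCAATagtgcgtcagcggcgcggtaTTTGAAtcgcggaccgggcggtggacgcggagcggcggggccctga
Ube2c: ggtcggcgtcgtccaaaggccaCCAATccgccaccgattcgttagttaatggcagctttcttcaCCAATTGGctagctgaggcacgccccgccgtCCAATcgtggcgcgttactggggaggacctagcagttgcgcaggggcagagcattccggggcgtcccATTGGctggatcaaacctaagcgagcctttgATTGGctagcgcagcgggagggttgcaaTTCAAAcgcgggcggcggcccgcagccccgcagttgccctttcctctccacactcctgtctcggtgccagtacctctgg

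TTTGAA was found in 19 of the 28 G2/M promoters in RefSeq (67.9%), in 3 of 24 S-phase promoters (12.5%) and in 18.1% of all 27025 promoters. CCAAT was found in 75.0%, 54.2% and 37.9%, and both together in 57.1%, 8.33% and 7.12%. The promoter of Nusap1, the gene with the largest ratio, held neither. Capitals in the second set mark TTTCGCGC or TTTGGCGC, 2 spellings of the site bound by E2F factors, on either strand, in the promoters of Clspn (chr4:126556730-126557029, plus strand) and Mcm6 (chr1:128359656-128359955, minus strand), where the 2 spellings overlap on opposite strands.
Clspn: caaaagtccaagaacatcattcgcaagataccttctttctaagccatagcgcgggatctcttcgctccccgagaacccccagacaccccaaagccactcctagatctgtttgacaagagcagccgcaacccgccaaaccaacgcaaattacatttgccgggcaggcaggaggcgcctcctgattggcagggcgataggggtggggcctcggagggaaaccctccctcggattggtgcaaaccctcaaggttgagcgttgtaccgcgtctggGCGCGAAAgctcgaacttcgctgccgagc
Mcm6: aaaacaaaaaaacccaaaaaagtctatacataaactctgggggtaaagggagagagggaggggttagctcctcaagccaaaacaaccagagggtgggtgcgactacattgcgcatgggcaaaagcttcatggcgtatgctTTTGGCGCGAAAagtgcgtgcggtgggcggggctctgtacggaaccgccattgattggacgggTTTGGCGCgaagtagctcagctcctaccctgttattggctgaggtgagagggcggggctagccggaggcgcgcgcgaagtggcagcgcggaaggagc

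One of these E2F spellings was found in 6 of 24 S-phase promoters (25.0%), in 3.57% of the 28 G2/M promoters and in 0.833% of all promoters. A match describes the letters in this window and is not evidence of binding.

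Replication-dependent histone genes, which are made in S phase, were higher in all 17 mice for 17 of 18, with a median log2 ratio of 3.63. Hist1h2ap read 2990, 5472 and 21458 CPM in blasts and 33.2, 104 and 422 CPM in resting DP cells.

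Of 13 genes that govern entry into S phase, 11 were higher in all mice. Ccne2, a cyclin of the G1/S transition, read 25.0, 57.0 and 314 CPM in blasts against 0, 1.85 and 33.4 CPM, and E2f8, a repressor of the E2F family that is made in S phase, 53.5, 72.7 and 108 against 0, 1.13 and 7.34 CPM. The exceptions were the D cyclins. Ccnd3, the D cyclin that pre-TCR-driven expansion requires, had 397, 985 and 1463 CPM in blasts and 688, 1041 and 1567 CPM in resting DP cells, and was higher in blasts in 3 of 17 mice. Ccnd2 had 3.48, 13.3 and 97.3 CPM against 8.55, 50.9 and 276 CPM.

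Among 12 brakes on division, 2 were higher in all mice and 6 lower. Cdkn2c, an inhibitor of the kinases that pair with D cyclins, read 35.9, 158 and 244 CPM in blasts against 0, 16.9 and 35.8 CPM, and Rbl1, of the retinoblastoma family, had a median log2 ratio of 2.02. The antiproliferative genes Btg1 (median log2 ratio -2.13), Btg2 (-1.91) and Tob1 (-1.56), the kinase inhibitor Cdkn1b (-1.15) and Rbl2 (-1.38) were lower. Btg1 was 125, 251 and 757 CPM in blasts and 483, 1129 and 2476 CPM in resting cells, so its ranges overlapped across mice although each mouse had less in blasts.

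Growth and nutrient genes were higher in all mice for 9 of 15 (median log2 ratio 0.92). Tpi1, a glycolytic enzyme, read 95.6, 170 and 230 CPM in blasts against 23.1, 29.5 and 47.9 CPM. Npm1, a nucleolar protein of ribosome assembly, read 890, 1591 and 2640 against 373, 658 and 1271 CPM, and Tfrc, the transferrin receptor, 22.3, 49.5 and 136 against 8.51, 21.1 and 44.1 CPM. Slc2a1, a glucose transporter, went the other way, with a median log2 ratio of -0.88. When each cell was thinned to 1500 RNA UMIs, which leaves out shallower cells, the median of this list was 0.27.

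On the Notch and pre-TCR list of 11 genes, 2 were higher in all 17 mice and 3 lower, shares close to the 16.3% and 26.9% of all genes. Notch1, the receptor, had 66.2, 103 and 427 CPM in blasts against 22.1, 52.1 and 351 CPM, and Myc, which carries growth signals downstream of Notch, had 36.9, 62.4 and 146 against 2.14, 17.3 and 127 CPM. Tcf7, Gata3 and Bcl11b, factors of T cell commitment, had median log2 ratios of -0.66, -0.97 and -0.82. The Notch target Hes1 was higher in 14 of 17 mice, at 0, 7.21 and 125 CPM against 0, 3.28 and 87.8 CPM.

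Rag1, the recombinase, was lower in blasts in 16 of 17 mice, at 19.4, 267 and 1045 CPM against 44.0, 805 and 3456 CPM. Dntt, which adds bases at the joins, had 295, 835 and 1374 CPM against 440, 1045 and 1636 CPM and was higher in 5 of 17 mice. Of the 10 recombination genes, Dclre1c and Lig4, which open hairpins and join ends, were lower in all mice, a smaller share than the 26.9% of all genes. Of 11 TCR and CD3 genes, 7 were lower in all mice, among them Trac, the TCRα constant region, at 122, 209 and 4993 against 436, 1133 and 14219 CPM. Trdc, the TCRδ constant region that TCRα rearrangement deletes, had 93.5, 266 and 482 CPM in blasts and 23.8, 59.6 and 627 CPM in resting cells, higher in 10 of 17 mice.

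Genes of DP identity were lower in all mice for 11 of 15 (median log2 ratio -1.19, and -0.74 after thinning to 1500 RNA UMIs). Ccr9, a chemokine receptor that holds thymocytes in the cortex, read 99.1, 222 and 725 CPM in blasts and 909, 1577 and 2806 CPM in resting cells. Cd4, the coreceptor, read 20.8, 87.1 and 165 against 119, 373 and 613 CPM. Mns1 was the exception, higher in all 17 mice with a median log2 ratio of 1.17.

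Genes induced by TCR signals were the list furthest below resting cells, with 11 of 12 lower in all mice and a median log2 ratio of -2.03. Cd69, an early activation marker, had 3.31, 10.3 and 29.2 CPM against 26.5, 75.0 and 128 CPM, and Cd5, whose level follows TCR signal strength, 18.6, 56.4 and 178 against 102, 286 and 425 CPM. Treg, mature thymocyte and NKT and γδ T cell genes also had lower medians in blasts (-1.55, -1.16 and -0.92). Their sums had medians of 325, 312 and 250 CPM in resting DP cells and 110, 115 and 94.97 CPM in blasts. The part of such cells in this comparison was not tested. The survival genes Bcl2 (median log2 ratio -1.55) and Mcl1 (-1.58) and the death genes Bbc3 (-2.99) and Bcl2l11 (-1.58) were lower too, while the death gene Bid was higher (1.51) in all mice.

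Blasts were also set against 424 cycling cells that met the rule but had no UMI of Cd8a or Cd8b1. These Cd8-negative cells were chosen by RNA only, and their surface markers, given below, differed between mice. They gave at least 20 cells in 8 mice (AND r1, F5 r2, WT r4, WT r5 and both mice of OT-I and OT-II), none of them sorted. The ratio of median UMIs, blasts over these cells of the same mouse, was 0.644 (0.529 to 1.11), and blasts were the deeper cells in 1 of 8 mice. Of 8889 genes, 8.94% were higher and 7.11% lower in blasts in all 8 mice.

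Both populations were in cycle, and 19 of 33 G2/M genes (median log2 ratio 0.61), 14 of 18 histone genes (0.82) and 5 of 28 S-phase genes (0.08) were higher in blasts in all 8 mice. After thinning to 1500 RNA UMIs, with 5 mice left, the S-phase median was -0.40. Ccnd3 was 397, 762 and 1076 CPM in blasts and 203, 284 and 360 CPM in Cd8-negative cells. Ccnd2 was 13.3, 26.7 and 97.3 CPM against 62.8, 151 and 419 CPM, and its partner Cdk6 109, 165 and 263 against 312, 450 and 750 CPM. Thus Ccnd3 was higher and Ccnd2 and Cdk6 were lower in blasts in each of the 8 mice. Brakes were higher for 7 of 12 genes, with median log2 ratios between 0.89 (Cdkn1b) and 1.58 (Cdkn2c).

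DN progenitor genes were lower in all mice for 5 of 8. Kit, the stem cell factor receptor, read 1.08, 3.29 and 10.4 CPM against 7.98, 23.4 and 84.0 CPM, and Il2ra, the CD25 chain that marks the DN stage before the pre-TCR, 10.8, 36.6 and 187 against 80.8, 243 and 487 CPM. Hes1 had a median log2 ratio of -1.58. The TCRγ constant genes Tcrg-C1 (-3.001), Tcrg-C2 (-2.94) and Tcrg-C4 (-2.72) were lower in blasts, as was Cd3g (-0.99).

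Genes of DP identity were higher for 9 of 15. Cd4 read 20.8, 48.0 and 165 CPM in blasts and 0, 3.74 and 13.5 CPM in Cd8-negative cells, and Satb1, a chromatin organizer of thymocytes, 569, 740 and 1287 against 102, 231 and 500 CPM. The ranges overlapped for neither gene. Rag1 was higher in all 8 mice, at 19.4, 279 and 1045 against 1.42, 56.8 and 453 CPM, and Trac likewise, with a median log2 ratio of 1.22. The lowest Rag1 in blasts was in AND r1, which is Rag1-/-.

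Growth genes leaned the other way here, with 4 of 15 lower in blasts in all mice and 1 higher (median log2 ratio -0.32, and -0.52 after thinning). Npm1 had 890, 1900 and 2640 CPM against 1385, 2855 and 3374 CPM. Mature thymocyte genes were lower in blasts in all mice for 4 of 7 (median log2 ratio -1.58) and NKT and γδ T cell genes for 2 of 5 (-0.99), both with a median of 0 after thinning, and the part of such cells in this comparison was not tested. Il7r, also known from mature cells (-2.48), and the survival gene Bcl2 (-1.85) were lower. Outside the lists the largest median log2 ratios among genes of at least 50 CPM were those of Syt13 (2.57), Tubb2b (2.52), Phlda1 (2.40) and Ptms (2.26), each higher in 8 of 8 mice.

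The other dividing T cells of the thymus were represented by 1214 cycling mature cells, with Mki67 and Top2a, with Ccr7 or S1pr1 and with neither Arpp21 nor Ptcra, in 12 mice. Depths were close, with a ratio of median UMIs of 1.06. Of 8909 genes, 13.8% were higher and 11.5% lower in blasts in all 12 mice. The G2/M list had 14 of 33 genes higher in all mice (median log2 ratio 0.69, and larger without called doublets), the S-phase list 5 of 28 and the histones 5 of 18 (0.75).

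The D cyclins split again. Ccnd3 read 466, 1082 and 1463 CPM in blasts and 253, 288 and 413 CPM in cycling mature cells, and Ccnd2 4.83, 11.7 and 97.3 CPM against 328, 441 and 1130 CPM, a median log2 ratio of -4.92. Neither pair of ranges overlapped. Ccnb1, a mitotic cyclin, was 205, 433 and 532 against 66.9, 131 and 189 CPM.

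All 5 of the recombination genes that moved the same way in the 12 mice were higher in blasts. Rag1 was 83.3, 299 and 1045 CPM against 0, 3.77 and 320 CPM, and Dntt 295, 1144 and 1374 against 8.90, 20.3 and 130 CPM. Of 15 DP identity genes, 11 were higher, among them Aqp11 (median log2 ratio 5.09) and Cd24a (3.14), which encodes the immaturity marker CD24. On the Notch and pre-TCR list, Notch3 (3.32), Notch1 (1.21), Tcf7 (1.15), Bcl11b (1.03) and Runx1 (0.72) were higher. Outside the lists, Endou (6.46) and Ly6d (6.31) had the largest ratios.

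Mature thymocyte genes were lower for 8 of 10. Klf2, the factor that switches on exit receptors, read 5.77, 11.96 and 60.3 CPM in blasts against 229, 651 and 717 CPM, and Itgb7, the integrin β7 chain, 2.65, 5.98 and 14.97 against 169, 273 and 378 CPM. TCR signal genes were lower for 12 of 13 (median log2 ratio -2.37, and -1.27 after thinning, with 4 mice left), and 6 of 8 interferon genes for the same 12 mice (-2.89). Bcl2 had a median log2 ratio of -3.10 and Bid one of 2.32.

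**Figure D2:**
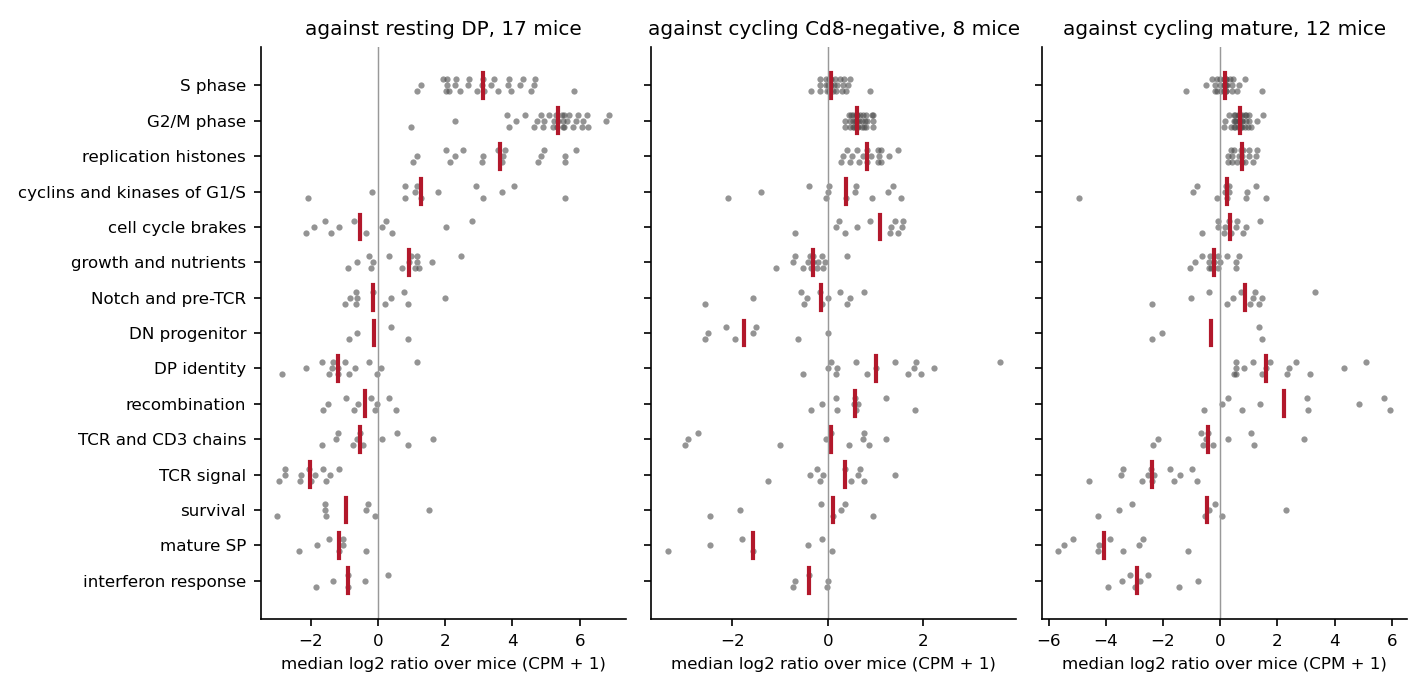
Median log2 ratio over mice of each gene (points) of 15 gene lists (y axis), for blasts against resting DP cells (left, 17 mice), cycling Cd8-negative cells (middle, 8 mice) and cycling mature cells (right, 12 mice); the red bar is the median of a list and positive values (x axis, log2 of CPM + 1) are higher in blasts. The S and G2/M lists have medians of 3.11 and 5.35 on the left and 0.08 and 0.61 in the middle, where DP identity is at 1.01 and DN progenitor at -1.76.

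The balance of G2/M to S transcripts, taken as the summed CPM of the first list over that of the second, was 0.868, 1.57 and 2.66 in blasts at the lowest, median and highest mouse, 0.699, 0.880 and 1.16 in cycling Cd8-negative cells and 1.01, 1.29 and 1.66 in cycling mature cells. Within mice it was higher in blasts than in Cd8-negative cells in 7 of 8 and than in mature cells in 7 of 12. In blasts it also differed between sorted and unsorted mice. Sort, genotype and experiment overlap here, and the part of each was not tested. Blasts of the 7 sorted mice had ratios of 1.69 to 2.66, and those of the 10 unsorted mice 0.868 to 1.57 except F5 r1, which had 2.10.

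Antibody counts were not used by the rule, so they were tested, with edgeR's quasi-likelihood test and the mouse as a block. Values are antibody UMIs per 10000, and the antibodies against CD45.1 and CD90.1, allelic forms that these mice are not expected to carry, served as a reference for unspecific binding. Against resting DP cells, 67 of 111 antibodies passed an adjusted p of 0.05 (60.4%), 25 higher in blasts and 42 lower. With library-size scaling in place of TMM 44 passed, 30 higher and 14 lower, so the balance of directions rests on the scaling. CD45.1 had a log2 fold change of -0.17 (edgeR adjusted p = 0.0182) and CD90.1 one of -0.17 (adjusted p = 0.0585). In blasts CD45.1 reached 12.2 among CD4-fated mice and at most 2.39 among CD8-fated mice, so unspecific binding differed between mice.

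CD304, or neuropilin-1, a coreceptor of semaphorins and VEGF, had 46.1, 99.2 and 172 UMIs per 10000 in blasts at the lowest, median and highest mouse and 4.92, 11.03 and 58.4 in resting DP cells. It was higher in blasts in 17 of 17 mice (log2 fold change 2.85, SE 0.192, edgeR adjusted p = 6.06e-12). CD71, the transferrin receptor, read 82.5, 107 and 442 against 16.5, 24.1 and 91.0 and rose in all 17 mice by 2.16 on the log2 scale (SE 0.0952, adjusted p = 1.29e-15). For both, the ranges touched only at the edges.

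Notch1 on the surface was 18.8, 35.1 and 74.9 in blasts and 7.19, 15.3 and 50.6 in resting cells (log2 fold change 1.03, edgeR adjusted p = 8.02e-10). The integrin chains CD49d (α4) and CD29 (β1) rose by 1.06 and 0.88 on the log2 scale in every mouse, and the immaturity marker CD24 and the stem cell factor receptor CD117 by 0.62 and 0.59. CD25 was higher in 14 of 17 mice (log2 fold change 0.92, SE 0.242, adjusted p = 0.00283), with a spread from 2.23 to 300 over mice that is much wider than that of CD304. When both populations were taken after thinning to 1500 RNA UMIs, the CD25 difference was -0.23.

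CD5 fell in all 17 mice, from 382, 1355 and 1811 in resting DP cells to 173, 533 and 960 in blasts (log2 fold change -1.31, SE 0.102, edgeR adjusted p = 8.53e-11). CD69 was 5.90, 7.55 and 18.6 in blasts against 8.69, 16.0 and 24.1 (-0.98, adjusted p = 4.34e-07). The IgM antibody also reached 18.6 in the blasts of CD4-fated mice, so the top of the CD69 range was no higher. The signalling lymphocyte receptor CD150 (-0.98), the costimulator CD278 or ICOS (-1.01), the integrin CD11a (-0.67) and the ectonucleotidase CD73 (-0.67) were lower in every mouse. In sorted mice both populations had passed the CD5+TCRB+ gate.

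The CD8 chains differed little, whereas CD4 was lower in blasts. CD8a read 536, 778 and 1147 in blasts and 401, 736 and 918 in resting DP cells, with a log2 fold change of 0.07 that did not pass (edgeR adjusted p = 0.336). CD8b was -0.15 (adjusted p = 0.0404) but higher in 8 of 17 mice, smaller in size than the differences of the reference antibodies CD45.1 and CD90.1, and 0.13 after thinning to 1500 RNA UMIs. CD4 was lower in 15 of 17 mice, at 197, 518 and 1196 against 343, 675 and 1355 (-0.46, adjusted p = 3.71e-06), and the TCRβ chain in 13 of 17, at 9.73, 18.3 and 102 against 11.996, 27.6 and 74.7 (-0.48, adjusted p = 0.00403).

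Against cycling Cd8-negative cells, 31 of 109 antibodies passed (28.4%), 12 higher and 19 lower, and 22 without WT r5, OT-I r2 and OT-II r2. The CD8 antibodies were left out of this test, since the rule separates these populations by Cd8 RNA. CD8a read 536 to 1147 in the blasts of all mice and 20.5, 36.9 and 121 in the Cd8-negative cells, so surface CD8 was low in the cells without Cd8 RNA. CD4 had 24.0, 52.8 and 95.2 in Cd8-negative cells, below every blast value, and was higher in blasts in 8 of 8 mice (log2 fold change 3.11, SE 0.158, edgeR adjusted p = 1.24e-07).

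CD25 was 306, 659 and 1236 in Cd8-negative cells and lower in blasts in all 8 mice (-2.69, SE 0.365, edgeR adjusted p = 0.000218). CD25, CD4 and CD48 were the antibodies whose values did not overlap between the populations, 2.75% of those tested. CD127, the IL-7 receptor (-1.35), CD49d (-1.19), Sca-1 (-1.28) and CD117 (-0.82) were lower too. CD304 (1.53, adjusted p = 0.00112), CD150 (1.37) and CD28 (1.102) were higher in 8 of 8 mice. CD71 stood at 95.2, 271 and 553 in the Cd8-negative cells. These cells were not alike over mice. TCRβ read 66.3 and 47.9 in OT-I, 45.9 in AND r1 and 37.3 in F5 r2, against 10.0 to 19.0 in OT-II and WT. CD62L read 997 and 793 in OT-I, 1241 in AND r1 and 729 in F5 r2, against 243 to 428 in OT-II and WT. They may thus hold more than the stage before CD8, and which stages they held was not tested.

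Against cycling mature cells, 74 of 111 antibodies passed (66.7%), 52 higher (46.8%) and 22 lower, and 17 did not overlap between the populations (15.3%). Without WT r5, OT-I r2 and OT-II r2, 54 passed, 26 higher and 28 lower, of which 48 were shared with the full set. The count was 45 without called doublets, 49 without WT r1, 49 with the study's protein filters and 40 with at least 50 cells per mouse. The CD8 antibodies are among the 111, although blasts had to hold Cd8 RNA and mature cells did not, so their differences are set in part by the rule. CD304 had 3.18, 4.75 and 9.499 in cycling mature cells and was higher in blasts by 4.22 on the log2 scale in 12 of 12 mice (SE 0.323, edgeR adjusted p = 8.98e-08). CD24 was 27.6, 52.7 and 185 in cycling mature cells (2.44, adjusted p = 7.27e-07).

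CD71 differed by 1.36 and Notch1 by 1.35 on the log2 scale, also in 12 of 12 mice. The T cell receptor and maturation markers went the other way in all 12 mice: TCRβ, at 65.8, 127 and 200 in cycling mature cells (log2 fold change -2.87, edgeR adjusted p = 7.71e-06), CD5 (-1.77), CD69 (-2.13), CD278 (-3.32) and CD127 (-1.60). CD4 did not pass (0.70, adjusted p = 0.1), being higher in 8 of 12 mice.

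**Figure D3:**
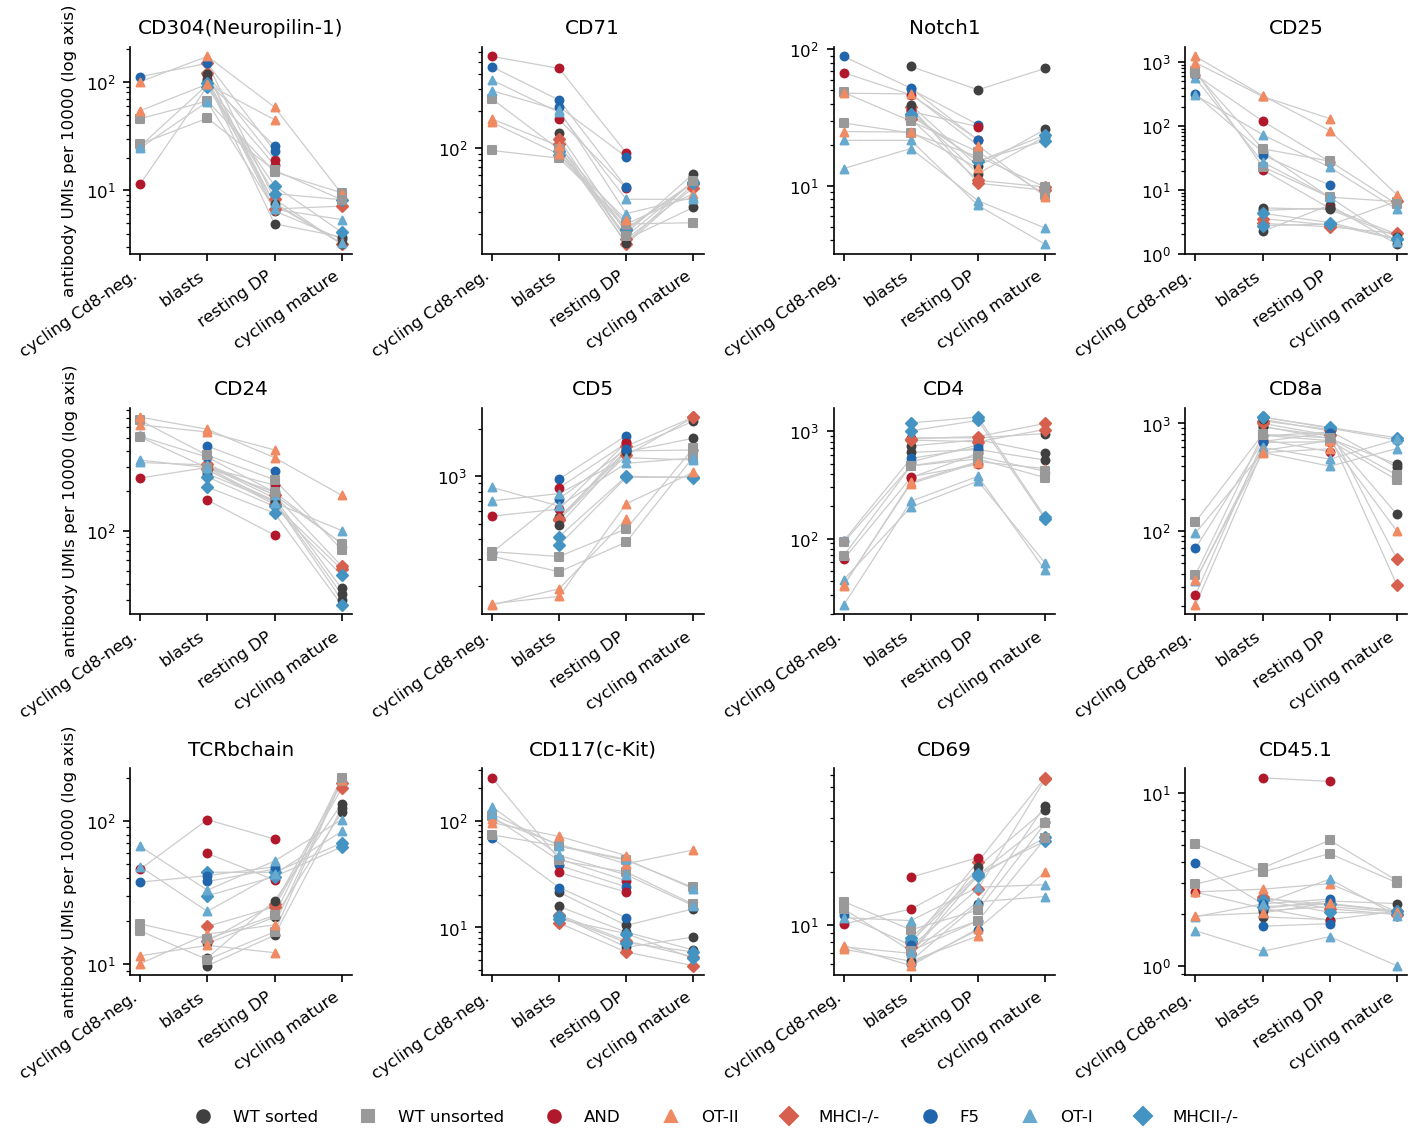
Antibody UMIs per 10000 (y axis, log scale) of 12 antibodies in cycling Cd8-negative cells, blasts, resting DP cells and cycling mature cells (x axis); each point is a mouse and gray lines join the populations of a mouse. The mice measured differ between populations (8, 17, 17 and 12 from left to right). CD304 has its highest median in blasts (99.2, against 36.3, 11.03 and 4.75), CD25 is at 306 to 1236 in Cd8-negative cells and at most 300 in blasts, and CD45.1, an allelic form used as a reference, is at 2.28 in blasts and 2.29 in resting DP cells.

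For 38 antibodies the RNA of the same gene could be set beside the protein. Of 27 that passed against resting DP cells and whose RNA was expressed, 16 had the same sign in RNA. CD25 was among those with the opposite sign. A further 6 that passed, CD117 and CD73 among them, had RNA below 5 CPM in both populations and were not counted. Nrp1, the gene of CD304, was 77.3 CPM against 19.6 CPM at the median (log2 ratio 1.55, higher in 16 of 17 mice), Tfrc had 1.15 and Notch1 0.76. Of the 11 with opposite signs, Itgb1 and Itga4, the genes of CD29 and CD49d, had RNA ratios of -0.40 and -0.14 where the antibodies rose, and Icam1, the gene of CD54, had -1.58 against an antibody fold change of 0.70. The coreceptor genes had RNA ratios of -2.13 (Cd4), -0.98 (Cd8a) and -1.42 (Cd8b1) beside antibody fold changes of -0.46, 0.07 and -0.15, and Cd8a and Cd8b1 were used by the rule. Both scales are shares of a cell's own total, and blasts held 4.63 times the RNA UMIs but 1.25 times the antibody UMIs of resting DP cells, so these signs are not those of amounts per cell. Against Cd8-negative cells the signs were the same for 19 of 19 antibodies, and against mature cells for 25 of 27.

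Members were then split by whether they had a UMI of Ptcra, in the 16 mice with at least 20 of each kind. This split was chosen after the numbers of cells were seen. Ptcra-positive members were deeper, with a ratio of median UMIs of 1.49 (1.20 to 1.77), so both kinds were also paired within a lane to within 10% in RNA UMIs, which left a ratio of 1.08. Of 111 antibodies 23 passed (20.7%), 15 higher in Ptcra-positive members and 8 lower, and 11 passed after pairing, 9 of them shared.

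CD304 was 61.9, 133 and 221 in Ptcra-positive members and 40.6, 66.3 and 103 in Ptcra-negative members, higher in 16 of 16 mice (log2 fold change 0.86, SE 0.0818, edgeR adjusted p = 1.13e-07). Notch1 was 27.3, 41.6 and 85.0 against 14.4, 26.1 and 61.6 (0.57, adjusted p = 7.77e-06). CD25 was higher in 15 of 16 mice, at 2.30, 26.1 and 408 against 1.79, 13.4 and 118 (1.28, adjusted p = 3.72e-05), and CD71 (0.41), CD29 (0.41), CD49d (0.49) and CD24 (0.34) in 16 of 16. CD5 was lower in all 16, at 115, 405 and 572 against 278, 586 and 1159 (-0.89, adjusted p = 2.23e-06).

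In RNA, 2.51% of 8715 genes were higher and 3.65% lower in Ptcra-positive members in all 16 mice. TCR signal genes were lower for 5 of 11 (median log2 ratio -0.95), among them Cd5, at 11.4, 40.3 and 101 against 28.1, 110 and 257 CPM, and Cd69, at 2.82, 6.22 and 10.9 against 3.74, 17.8 and 41.0 CPM. Mature thymocyte genes were lower for 2 of 7 (-0.80, and -0.68 with pairing by depth). Treg genes had a median of -0.54, and DN progenitor genes went the other way (0.91). The part of such cells in this split was not tested. Myc was 49.5, 83.3 and 188 CPM against 5.95, 34.999 and 114 CPM, Notch1 76.3, 136 and 495 against 44.8, 77.9 and 303 CPM, and Nrp1 had a median log2 ratio of 0.84. Growth genes were higher for 5 of 15, with Npm1 at 955, 1921 and 2989 against 730, 1211 and 2208 CPM, and Ccr9 (-1.65) and Trac (-0.90) were lower in all mice. The G2/M to S ratio was 1.33 in Ptcra-positive and 2.11 in Ptcra-negative members at the median, and higher in Ptcra-positive members in 2 of 16 mice.

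After pairing by depth, 0.23% of genes were higher and 0.539% lower in all mice. The growth list then had a median log2 ratio of -0.00 with no gene higher in every mouse, and the TCR signal list one of -0.99, with no gene lower in every mouse. The G2/M list moved from -0.33 without pairing to -0.13 with it, and the S-phase list from 0.24 to 0.16. The G2/M to S ratio was not taken with pairing. With this pairing the median log2 ratio was 0.63 for Notch1, against 0.77 without it (higher in 16 of 16 mice in both), 0.75 for Nrp1, against 0.84 (15 of 16 with pairing), and 0.60 for Myc, against 1.21 (15 of 16 with pairing). After thinning to 1500 RNA UMIs instead, with 5 mice left, the TCR signal median was -0.19 and the growth median 0.0680.

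**Figure D4:**
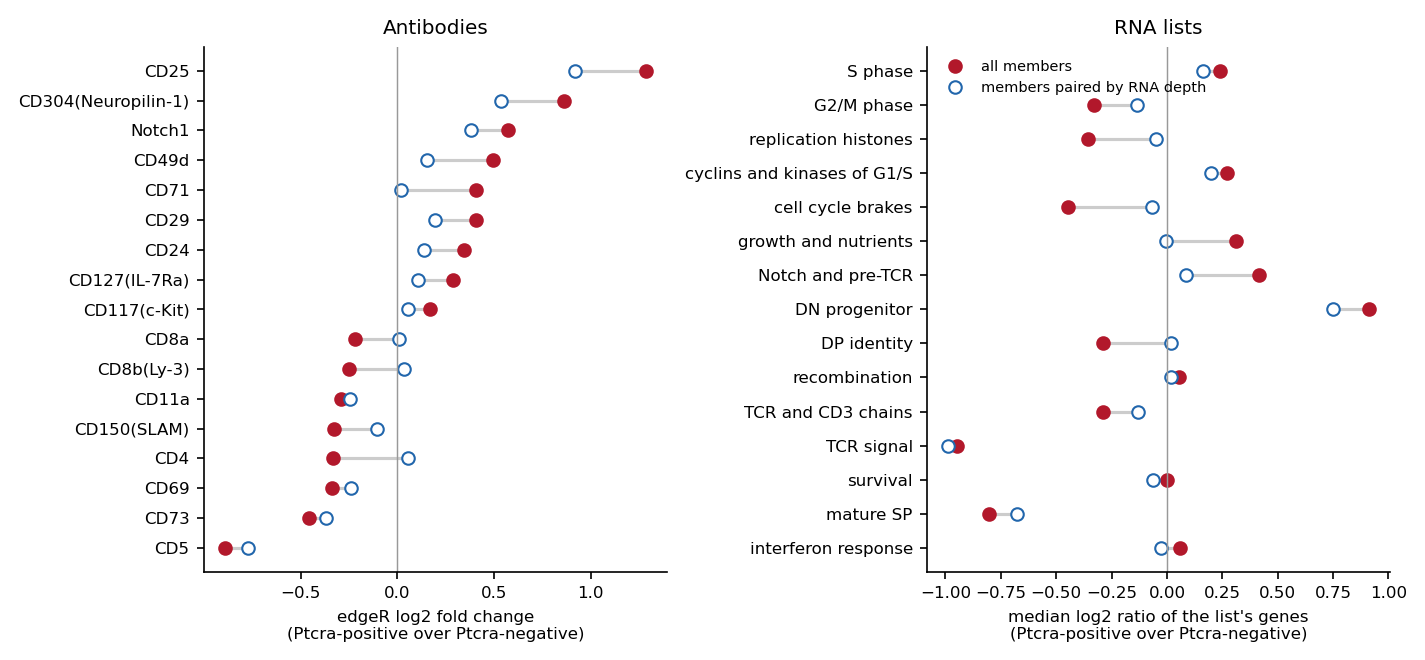
Difference of Ptcra-positive from Ptcra-negative members (x axis, log2), for antibodies (left, edgeR log2 fold change) and for the median of RNA gene lists (right), with all members (filled) and with members paired by RNA depth (open). With all members, CD25 and CD5 (-0.89) lie at opposite ends on the left, and CD304 is at 0.86. On the right the growth list moves from 0.31 to -0.00 with pairing while the TCR signal list is at -0.95 and -0.99. Thinned values (-0.19 for TCR signal) are not drawn.

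Blasts precede positive selection, and CD4-fated and CD8-fated mice were compared over mice, with the genotype family (AND and F5, MHC, OT) as a covariate. In edgeR's quasi-likelihood test 3 of 9310 genes passed (0.0322%), all higher in CD4-fated mice, and 236 had an unadjusted p under 0.05. Values of the 2 fates did not overlap for 7 genes (0.0752%). None of the 3 is on a list of T cell genes. With no family covariate none passed in edgeR, and 98 genes had an unadjusted p under 0.05. Without OT-I r2 and OT-II r2, 12 passed, including these 3 and genes lower in CD4-fated mice, such as Cdk19os (log2 fold change -6.32).

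Gm14091, an antisense RNA (chr2:118829874-118834122, minus strand), had 6.02 and 13.5 CPM in AND, 33.9 and 20.1 in MHCI-/-, 0 and 3.31 in OT-II and at most 0.777 CPM in any other mouse (log2 fold change 7.06, edgeR adjusted p = 0.00201). It lies 3.32 Mb from B2m, the gene deleted in MHCI-/- mice. Eif3j2 had 73.2 and 68.6 CPM in AND and 60.1 and 54.0 in MHCI-/-, against 4.18 and 1.99 in OT-II and 3.15 to 5.52 in the remaining mice (3.23, adjusted p = 0.00327). Eif3j1, its near-identical copy 0.119 Mb from B2m, was lower in the same AND and MHCI-/- mice, with -1.39 (adjusted p = 0.896, and 0.00803 without OT-I r2 and OT-II r2), so the split of reads between the copies is uncertain. Arhgef10l, a guanine nucleotide exchange factor, was 8.80 and 6.08 CPM in AND and 25.2 and 17.2 in OT-II but 0.859 and 0 in MHCI-/- (2.68, adjusted p = 0.00327). Each of the 3 genes was thus high in 2 of the CD4-fated genotypes and not in the third. The lines also differ in strain background, whose part in these values was not tested.

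Trac, Il2ra and Dtx1 are given by genotype, and differences between single genotypes were not tested. Trac read 2661 and 3805 CPM in AND and 4494 and 4993 in OT-II, but 467 and 399 in F5 and 122 to 322 in all other mice (CD4-fated against CD8-fated log2 fold change 2.56, edgeR adjusted p = 1). Il2ra was 121 and 187 CPM in OT-II, 10.8 and 40.4 in OT-I, 32.9 and 11.7 in AND and 14.6 and 14.5 in F5, and 0.480 to 2.21 in the 7 sorted mice (1.61, adjusted p = 1). The Notch target Dtx1 was 121 and 52.1 CPM in AND, 66.3 and 88.8 in OT-II and 35.2 and 73.4 in OT-I, against 16.7 and 21.9 in F5 and 2.15 to 15.7 in MHC-deficient and WT mice.

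Of 111 antibodies none passed between CD4-fated and CD8-fated mice, with edgeR or with DESeq2, and 7 had an unadjusted p under 0.05 in edgeR. CD25 read 300 and 291 UMIs per 10000 in OT-II, 119 and 20.6 in AND and 3.53 and 2.97 in MHCI-/-, against 27.1 and 73.1 in OT-I, 35.1 and 39.3 in F5 and 2.75 and 4.27 in MHCII-/- (log2 fold change 0.99, adjusted p = 0.509). CD5 read 173 and 193 in OT-II, 619 and 845 in AND and 533 and 530 in MHCI-/-, against 776 and 646 in OT-I, 960 and 718 in F5 and 414 and 367 in MHCII-/- (-0.83, adjusted p = 0.497). OT-II was lowest in CD5 and highest in CD25 of all genotypes, whereas the 7 sorted mice were lowest in CD25, at 2.23 to 5.197. The antibody values of AND r2 come from the lane with the fewest antibody UMIs.

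Blasts of the 4 OT-I and OT-II mice were also compared with those of WT r4 and r5 of the same experiment. The libraries that stand apart lay on both sides (OT-I r2 and OT-II r2, and WT r5), and the fit had no term for them. In edgeR none of 10293 genes passed, 225 had an unadjusted p under 0.05, and DESeq2 called 11. Groups of 4 and 2 did not overlap for 880 genes (8.55%). Dtx1 was 35.2 to 88.8 CPM in the OT mice and 7.53 and 8.21 in WT (log2 fold change 3.13, edgeR adjusted p = 0.208), and Lyz2, a myeloid lysozyme, 0.749 to 5.30 against 29.7 and 64.5 CPM (-4.002, adjusted p = 0.208). The myeloid list as a whole was highest in WT r5.

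For antibodies none of 111 passed in edgeR, 25 had an unadjusted p under 0.05, DESeq2 called 16, and 48.6% did not overlap. When a mouse was left out edgeR called 0 to 21, with 2 calls without WT r4, 3 without OT-I r1 and 21, CD25 among them, without OT-II r1. CD25 was 27.1 to 300 in the OT mice and 23.0 and 44.0 in WT (log2 fold change 2.71, edgeR adjusted p = 0.166), so the ranges overlapped through OT-I r1. CD304 was 65.5 to 172 against 66.6 and 46.1 (1.29, adjusted p = 0.195), and TCR Vβ5 2.83 (adjusted p = 0.141). On simulated data this comparison recovered 6.03% of 116 genes changed by 1 and 60.7% of 84 genes changed by 2 on the log2 scale. For CD4-fated against CD8-fated mice it was 83.9% of 93 and 100% of 107. The simulated mice were independent and had the same change in every family. In the real mice changes differed between genotypes, so these shares may overstate what the fits can detect. Most changes of 1 were thus not detectable in the comparison of OT with WT. It had 2 WT mice and no term for the libraries that stand apart, and the part of each was not tested.

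**Figure D5:**
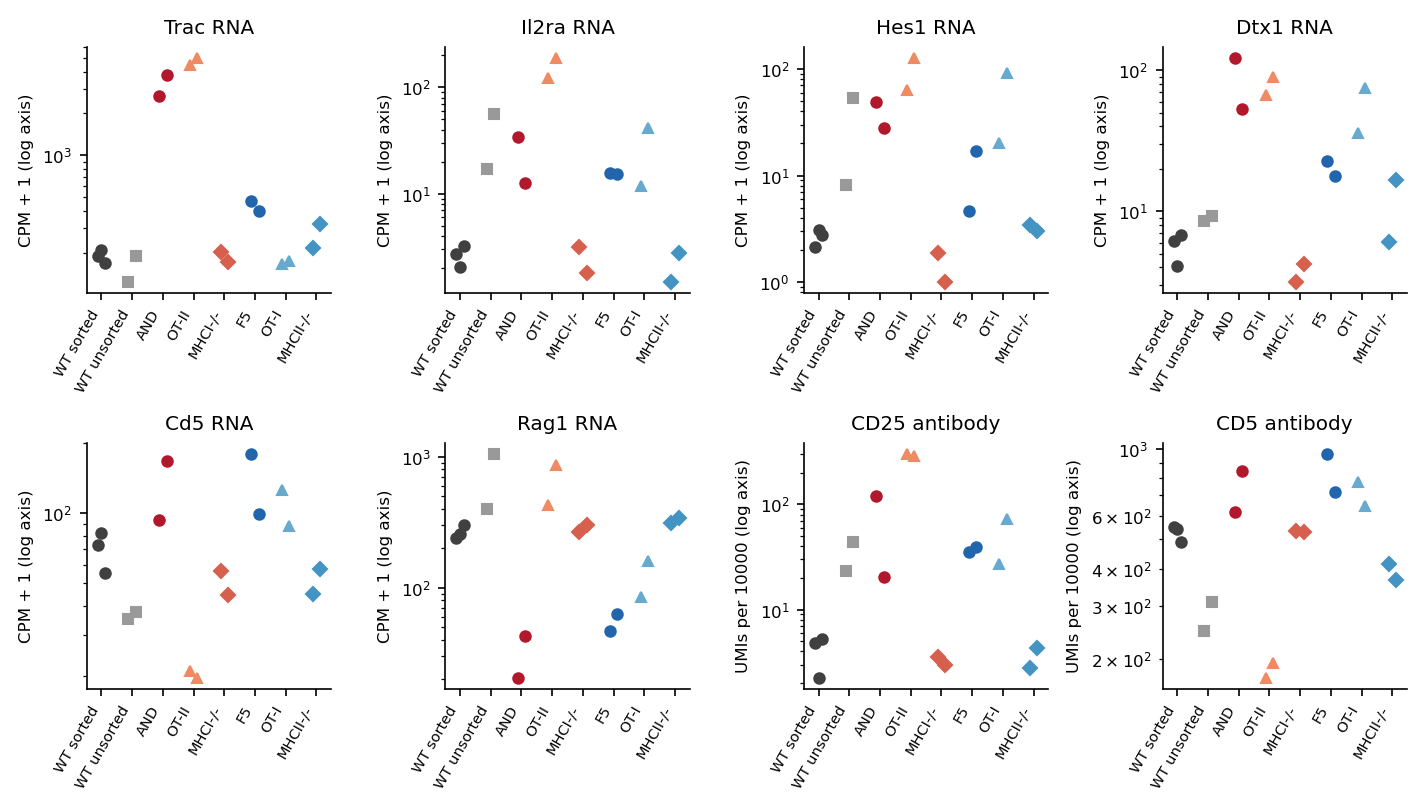
RNA in the blasts (Trac, Il2ra, Hes1, Dtx1, Cd5 and Rag1, CPM + 1, log scale) and antibodies CD25 and CD5 (UMIs per 10000, log scale) by genotype (x axis), 1 point per mouse. Trac is at 2661 to 4993 CPM in AND and OT-II and at most 467 CPM elsewhere, Rag1 is lowest in AND and F5 (19.4 to 62.4 CPM), and CD5 on the surface is lowest in OT-II (173 and 193).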

How the data were processed

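Single-cell 3′ RNA and antibody libraries of thymocytes from 17 mice were read as UMI counts per gene or antibody and barcode. Per the labels and the study's methods, the authors deposited counts made with Cell Ranger 3.1.0 on mm10 with feature barcoding, without depth normalization, as 19 lane matrices. No column was left unassigned (0 not used).

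Barcodes with at most 15% mitochondrial UMIs and at least 200 genes were kept, the rule was applied to UMIs, and counts were summed per mouse (lanes of WT r4 and of r5 together), which is the replicate. Lanes held 2550 to 9408 barcodes, 9893333 to 43303999 RNA and 4484116 to 34762051 antibody UMIs. Members numbered 61 to 1641 a mouse, with 1241517 to 21925803 summed RNA and 131652 to 6960253 summed antibody UMIs. RNA comparisons with other cells, since the rule used RNA, were described as log2 ratios of CPM + 1 within mice, for genes with a mean of at least 5 CPM. Antibodies and contrasts between mice were tested with edgeR 4.0.16 (quasi-likelihood, TMM, filterByExpr for RNA, Benjamini-Hochberg over all features, threshold 0.05) in mice with at least 20 cells. Positive values are higher in members, in CD4-fated or in OT mice. R 4.3.3, DESeq2 1.42.0 and Python 3.11.15 were used. The tests were checked on simulated counts.

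The members, gene lists and antibodies were chosen with earlier results of these data known. Named genes were those of the lists, the 10 called features of smallest adjusted p in each direction of a test, and the 15 genes of highest median log2 ratio at 50 CPM or more. A comparison of Arpp21-only with Ptcra-only members could not be fitted, since only WT r5 had 20 cells of both, and the split by Ptcra took its place. Same-numbered mice of a family deviated together in antibodies (correlations 0.352, 0.383 and 0.103 for the AND and F5, MHC and OT families), so the numbers were taken to pair the antibody data, and a fit with the replicate block again called none. Alternatives were DESeq2, other scalings, filters and cell minimums, removal of called doublets, the study's protein filters, thinning, and leaving out each mouse, the first experiment, or the 3 libraries that stand apart. Doublets were called per lane from simulated pairs at 0.8% per 1000 barcodes. Some members of the gene lists and of the antibody panel are not reported here by name.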

Additional observations from a re-analysis of the deposited data

Results flagged for a closer look

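An extreme value was looked for in 27 sets, each of the CD4-fated mice, the CD8-fated mice or the OT-I and OT-II mice together. Chance alone would mark about 1 in 20 of them, and 5 were found. The share of blasts in F5 r2 was 16.9%, far above the next CD8-fated mouse at 7.16%. Eif3j1 read 514 CPM in OT-I r2 against at most 180 CPM in the other CD8-fated mice, and 369 CPM in OT-II r2 against at most 129 CPM in the other CD4-fated mice. Il2ra read 40.4 CPM in OT-I r2 and at most 14.6 CPM in the other CD8-fated mice. Gm14091 read 0.240 CPM in MHCII-/- r1 and at most 0.0717 CPM in the other CD8-fated mice, a very low level throughout.

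Several differences went in opposite directions in different genotypes, and none of these differences between genotypes was tested. Trac was higher in CD4-fated than in CD8-fated mice in the AND and F5 and the OT families, with its highest value, 4993 CPM, in OT-II r2, and lower in MHCI-/- than in MHCII-/-. The share of blasts, whose highest value was 17.01% in WT r5, was lower in MHCI-/- than in MHCII-/- and higher in OT-II than in OT-I. Against resting DP cells, the TCRβ chain antibody (log2 fold change over all mice -0.48) was higher in blasts in both AND mice, CD28 (-0.20) in both OT-I mice and CD8b (-0.15) in all sorted WT, MHCI-/- and MHCII-/- mice, while CD8a (0.0741) was lower in both mice of F5 and of OT-II. The reference antibodies CD45.1 (-0.17) and CD90.1 (-0.17) were higher in blasts in AND and MHCI-/- mice and in MHCII-/- mice, respectively, and lower in F5, OT-I, OT-II and unsorted WT mice.

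Against cycling mature cells, CD8a (1.66) and CD8b (1.83) were lower in blasts in both OT-I mice and higher in all mice measured of sorted and unsorted WT, MHCI-/- and MHCII-/-. The rule required Cd8 RNA of blasts and not of mature cells, so the CD8 values are a description. CD4 (0.70) was lower in both MHCI-/- mice and higher in all mice measured of MHCII-/-, unsorted WT and OT-I. Between Ptcra-positive and Ptcra-negative members, CD69 (-0.34) and CD8b (-0.25) were higher in Ptcra-positive members in both AND mice and CD8a (-0.22) in both OT-I mice.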

How the results depend on the processing

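Of the 289 alternative values of counts of calls, list medians and the share, 235 stayed within their margin, 53 moved and 1 reversed. Of 2175 alternative values of single genes and antibodies, 2041 kept their direction and side of the threshold, 82 lost it, 40 gained it and 12 reversed. The causes were not tested except where stated.

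For CD4-fated against CD8-fated RNA the 3 calls became 6 with DESeq2, 78 with no filterByExpr, 0 with no family covariate, 12 without WT r5, OT-I r2 and OT-II r2, and 5 to 7 when a mouse was left out. With a replicate block 8 genes passed. Among them were Mme (log2 fold change -9.65) and Cdk19os (-6.19), both lower in CD4-fated mice. These 2 genes also passed in most fits with a mouse left out, so the single direction of the 3 calls rests on the fit. In RNA, same-numbered mice had correlations of deviations of 0.0311 and 0.0340 in the AND and F5 and the MHC families, so the numbers were not taken to pair the RNA of all mice, and one of 0.703 in the OT family, whose r2 mice are both among the libraries that stand apart. For OT against WT RNA, 0 calls became 11 with DESeq2, 1 with protein filters added and 6 with no filterByExpr, and for antibodies 0 became 16 with DESeq2, 1 with library-size scaling, 1 without called doublets and 0 to 21 when a mouse was left out, with 2 calls without WT r4, 3 without OT-I r1 and 21 without OT-II r1.

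Without the replicate block (the mouse), antibody calls fell to 20 against resting DP, 11 against Cd8-negative, 47 against mature cells and 3 between Ptcra-positive and Ptcra-negative members. Library-size scaling gave 44 calls against resting DP and 35 for Ptcra, and pairing by depth 11. Calls against mature cells were 45 without called doublets, 49 with protein filters, 40 at a minimum of 50 cells, 49 without the first experiment and 49 to 78 when a mouse was left out, 49 without WT r1. In single antibodies, thinning put CD25 at -0.23 and CD8b at 0.13 against resting DP, where CD8a ran from -0.0306 to 0.112 over mice left out and lay below 0 in 7 of 17. Pairing by depth put CD4 at 0.0567, CD8a at 0.0080 and CD8b at 0.0322 between the Ptcra kinds.

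The share difference of CD4-fated and CD8-fated mice ran from -2.68 to 0.0824 points when a mouse was left out, positive only without F5 r2, and a replicate block of swaps within pairs gave an exact permutation p of 0.688. Thinning to 1500 UMIs moved list medians against resting DP to 2.52 for S phase, -0.74 for DP identity and 0.27 for growth, against Cd8-negative cells to -0.40 for S phase, -0.52 for growth and 0 for mature genes, against mature cells to 0.44 for S phase, -1.27 for TCR signal, 0.17 for growth and -1.47 for DN progenitor, and for Ptcra to -0.13 for histones, -0.19 for TCR signal and 0.0680 for growth. Without called doublets the G2/M median against mature cells was 1.23, and without WT r5, OT-I r2 and OT-II r2 the DN progenitor median against Cd8-negative cells was -2.63.

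The planned split into Arpp21-only and Ptcra-only members could not be fitted. Depth limits what the rule sees, since a single UMI decides membership and shallow cells are missed. Each genotype other than WT has 2 mice, and sort, experiment and genotype overlap in part.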
